A study of Mus musculus with 99 samples.

Results

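Mono-ubiquitylated histone H2A (H2AK119ub1, named for the modified lysine) was called at 15830 peaks in mouse embryonic stem cells (ESCs) that lived on RING1B WT alone, and 5994 of these peaks (37.9%) were found in that cell line only. These peaks were selected on the calls of the mark itself: a peak was taken when it overlapped, by as little as 1 bp, no H2AK119ub1 peak of the 3 other libraries, namely Parental cells without OHT, Parental cells with OHT and RING1B I53S cells with OHT. The other 9836 peaks of RING1B WT cells (62.1%) overlapped at least 1 of those lists. The 4 lists held 37048 peaks in all. The selected peaks are called WT-only peaks here, and the remaining peaks of the same library are called shared peaks.

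The study asked what the catalytic activity of RING1B does for Polycomb repression. Parental cells are ROSA26::creERT2 RING1A-/-;RING1B fl/fl mouse ESCs, so every line lacked RING1A, and 4-hydroxytamoxifen (OHT, 0.5 µM for 72 h) activated the Cre recombinase that removes RING1B, while ethanol was the vehicle of cells without OHT. RING1B WT and RING1B I53S cells are derivatives that stably express a FLAG-HA-tagged transgene from a pCAG vector, either wild type or with the I53S substitution in RING1B, and with OHT the transgene is their only RING1B. Each derivative was grown out as a clone after transfection, so that a difference between lines and a difference between clones cannot be told apart. Peak lists from ChIP-seq and gene counts from RNA-seq were analysed, from cells in 2i/LIF medium with serum. MTF2 KO derivatives, made with guide RNAs against Mtf2, the gene of a PRC2 subunit, were used for H3K27me3 and SUZ12 only, from Parental cells without and with OHT and from both transgenic lines with OHT. H2AK119ub1 had 1 library for each of the 4 conditions and was not profiled without OHT in the derivatives, so no condition of this mark has a replicate check. For other antibodies the same holds, except that MTF2 and JARID2 had 2 libraries each in the derivatives with OHT.

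H2AK119ub1 is written by Polycomb repressive complex 1 (PRC1), whose RING1A or RING1B subunit is an E3 ubiquitin ligase. Canonical PRC1 holds a CBX protein that reads H3K27me3, the mark of PRC2, whereas variant PRC1 holds RYBP or YAF2 and other PCGF proteins. PRC2 in turn comes in forms with MTF2 and EPOP (PRC2.1) or with JARID2 and AEBP2 (PRC2.2), and JARID2 can bind H2AK119ub1. In ESCs the strongest Polycomb sites are CpG islands at promoters of developmental regulators, and H2AK119ub1 also spreads widely at low level.

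Central windows of 150 bases of 5 WT-only peaks show what this DNA looked like. They were read from the plus strand of GRCm38, and capitals mark each CG dinucleotide. The first pair had the highest H2AK119ub1 scores, the next pair held the highest-scoring RING1B peaks, and the last had the most CG in its central window and was chosen after its values were seen.
AC161379.1 promoter, chr17:64875131-64875280: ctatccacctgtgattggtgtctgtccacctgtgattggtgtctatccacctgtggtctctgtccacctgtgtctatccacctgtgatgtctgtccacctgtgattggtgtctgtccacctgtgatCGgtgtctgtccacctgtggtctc
Intergenic peak, chr1:119189978-119190127: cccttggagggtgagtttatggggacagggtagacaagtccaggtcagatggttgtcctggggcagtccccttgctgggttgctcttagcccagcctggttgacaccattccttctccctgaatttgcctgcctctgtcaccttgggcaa
Foxd2 and Foxd2os promoter, chr4:114909767-114909916: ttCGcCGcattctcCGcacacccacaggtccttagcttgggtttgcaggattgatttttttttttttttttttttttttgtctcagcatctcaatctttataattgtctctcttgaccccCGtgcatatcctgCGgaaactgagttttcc
Tox2 promoter, chr2:163205996-163206145: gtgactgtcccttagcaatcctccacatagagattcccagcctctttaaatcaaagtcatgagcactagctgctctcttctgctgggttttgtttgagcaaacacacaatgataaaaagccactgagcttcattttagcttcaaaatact
Blvrb and Sptbn4 promoter, chr7:27446462-27446611: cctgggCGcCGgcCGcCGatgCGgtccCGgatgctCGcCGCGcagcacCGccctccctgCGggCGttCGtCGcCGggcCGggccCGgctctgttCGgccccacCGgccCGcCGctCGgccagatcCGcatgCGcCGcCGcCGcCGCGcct
The window at AC161379.1 repeated a short unit and held 1 CG, the intergenic and Tox2 windows held 0, the Foxd2 window held 5 and the Blvrb window held 29.

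WT-only peaks were weak and short by the measures that also decided whether they were called, so what follows on score and length is a description without a test. The score of a peak is the −log10 of its MACS2 p-value, and every list starts at a score of 10. WT-only peaks had a median score of 12.2 (quartiles 11 to 14.2, highest 41.9), and shared peaks one of 19.5 (14.1 to 29.3, highest 500). A score of at least 20 was reached by 221 WT-only peaks (3.69%) and by 48.9% of the shared peaks. Their median length was 969 bp (quartiles 657 to 1441, longest 7337) against 1930 bp, and they covered 6.92 Mb against 26.9 Mb. Of all peaks of RING1B WT cells with a score from 10 to 12, 70.6% were WT-only, a share that was 30.1% from 15 to 20, 8.05% from 20 to 30 and 0.442% from 30 to 50. None of the 787 peaks with a score of 50 or more was WT-only, which allows a share of up to 0.381%. By length, the share went from 75.4% below 500 bp to 1.87% at 4000 bp or more. The name of the set therefore means that the other 3 lists held no peak at the minimum score there. It does not show by itself that untreated Parental cells lacked the mark. For Parental and RING1B I53S cells with OHT, the paper reports loss of H2AK119ub1 by western blot and ChIP-seq. Their lists still held 5450 and 3120 peaks, and whether these carried the mark was not tested. The reads behind the lists were not analysed here.

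**Figure D1:**
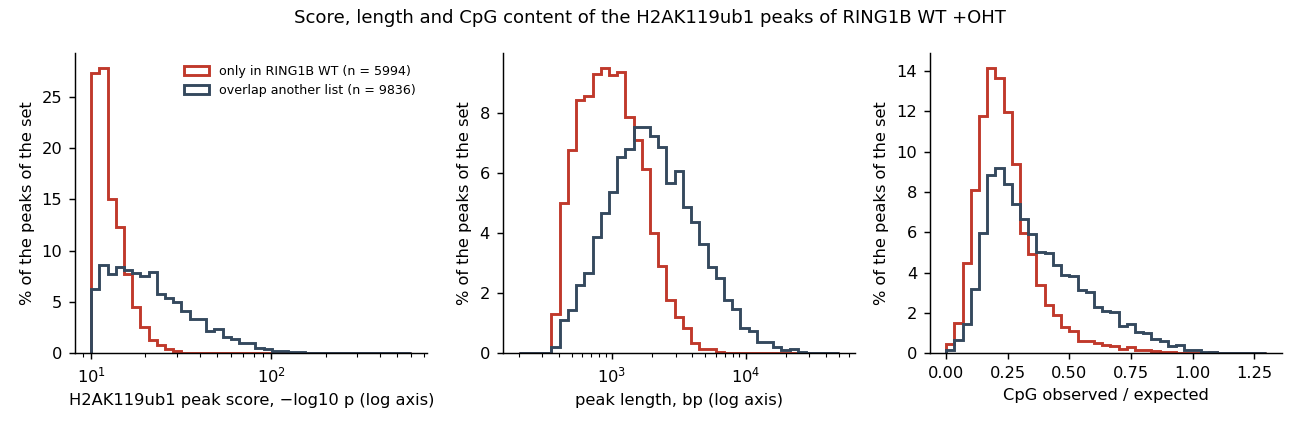
Histograms of the 5994 WT-only (red) and 9836 shared (blue) H2AK119ub1 peaks of RING1B WT cells with OHT, as % of the peaks of each set, over the peak score (−log10 p, log axis), the peak length (bp, log axis) and the observed over expected CpG content. WT-only peaks pile up just above the minimum score of 10 and at a CpG ratio near the median of 0.22, and shared peaks reach higher scores, greater lengths and higher CpG ratios.

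At the edge of the rule, 26 WT-only peaks lay within 100 bp of a peak of another list and 18 shared peaks owed their place to an overlap of at most 100 bp. The nearest misses were a peak at the promoter of Rragd, which encodes a Rag GTPase of the amino acid response (chr4:32984455-32985528, score 13.4, gap 9 bp), a peak on an exon of Gpr142, which encodes a G protein-coupled receptor (chr11:114803840-114805625, score 12.2, gap 10 bp), and a peak at the promoter of Elmsan1 (chr12:84217051-84217957, score 11.1, gap 12 bp). Just outside were a peak at the Sptbn1 promoter (chr11:30265788-30266177, score 10.4) that overlapped another list by 22 bp, and peaks on chromosomes 5 and 11 that overlapped by 25 and 27 bp, with scores of 11.1 and 13.7. The choice leaned on 1 library. Without the list of Parental cells without OHT the same rule would take 11382 peaks, against 6383 without Parental cells with OHT and 6049 without RING1B I53S cells.

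Many WT-only peaks lay beside H2AK119ub1 peaks of the other lists. The median gap to the nearest peak of the other 3 lists was 7268 bp (quartiles 1596 to 30858), with 1045 (17.4%) closer than 1 kb and 2606 (43.5%) closer than 5 kb, whereas 1059 (17.7%) lay over 50 kb away. The median gap was 8224 bp to the list of Parental cells without OHT, 40012 bp to Parental cells with OHT and 72150 bp to RING1B I53S cells, which also follows the number of peaks in these lists (12648, 5450 and 3120). Within the RING1B WT library itself, 39.0% of the WT-only peaks had a shared peak within 5 kb.

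WT-only peaks were less often at promoters than shared peaks. With a promoter defined as 2.5 kb to either side of an annotated start site, 2468 (41.2%, 95% Wilson interval 39.9% to 42.4%) touched a promoter, against 67.7% (66.7% to 68.6%) of the shared peaks and 13.3% of the genome covered by such windows. Of the remaining WT-only peaks, 710 (11.8%) touched an exon, 1266 (21.1%) lay in introns and 1550 (25.9%) between genes, and for shared peaks these shares were 8.49%, 9.43% and 14.4%. A start site itself was covered by 11.7% of the WT-only and 34.7% of the shared peaks, and the median distance to the nearest was 4289 bp against 315 bp. Longer peaks touch a window more easily, and these values are not corrected for length. All intervals over peaks cover counting error only, and neighbouring peaks are not independent.

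By chromosome, WT-only peaks followed the other peaks of the mark. Chromosome 11 held 1083 of them (18.1%), with 66.1 per 100 protein-coding genes, although it makes up 4.48% of the genome and 7.47% of the coding genes. It also held 18.7% of the shared peaks, 19.8%, 17.8% and 22.7% of the lists of Parental cells without OHT, Parental cells with OHT and RING1B I53S cells, and 18.0% of the RING1B peaks of RING1B WT cells, so this weight was present in every line and in 2 antibodies. The X chromosome held 59 WT-only peaks (0.984%), or 6.22 per 100 coding genes. The share of peaks that were WT-only ran from 30.5% (26.0% to 35.3%) on chromosome 14 to 44.0% (35.9% to 52.5%) on X.

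The DNA under WT-only peaks had few CpGs. Their median GC content was 52.9% against 53.4% for shared peaks, but the observed over expected CpG ratio was 0.22 (quartiles 0.16 to 0.30) against 0.32 (0.22 to 0.49), and 0.67 at the 3941 RING1B peaks of RING1B WT cells. A peak was called CpG island-like when its GC content was over 50% and this ratio over 0.6. By this measure 130 WT-only peaks (2.17%, 1.83% to 2.57%) were island-like, against 13.2% (12.6% to 13.9%) of the shared peaks and 68.6% of the RING1B peaks. In central windows of 300 bases the letters GCGCGC, the same on both strands, occurred in 1.13% of WT-only peaks, 6.11% of shared peaks, 27.3% of RING1B peaks and 13.6% of 32851 RefSeq promoter windows of GRCm38 of the same length. The E-box CACGTG, also the same on both strands, occurred in 4.92%, 5.55%, 7.13% and 7.15% of these windows. Both are matches of letters only. The windows printed above show this range, from no CG at Tox2 to the CG-rich promoter of Blvrb.

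Few WT-only peaks held RING1B itself. In RING1B WT cells with OHT, 165 of them (2.75%, 2.37% to 3.20%) overlapped a RING1B peak, against 31.1% (30.2% to 32.0%) of the shared peaks, while the RING1B list covered 0.243% of the genome. RING1B was found at 5.04% in Parental cells without OHT, 0.701% in Parental cells with OHT and 1.00% in RING1B I53S cells. Among the WT-only peaks with RING1B, 146 had it in both RING1B WT and untreated Parental cells and 19 in RING1B WT cells only, whereas 156 had it in untreated Parental cells only. Where RING1B was present, its median score in RING1B WT cells was 22.1 at WT-only and 34.7 at shared peaks.

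Other PRC1 subunits were each at under 5% of the WT-only peaks in RING1B WT cells. PCGF2, a subunit of canonical PRC1, was at 4.12% of the WT-only peaks in RING1B WT cells (31.6% of the shared peaks) and at 6.74% in untreated Parental cells. CBX7, the H3K27me3-reading subunit, was at 2.27% (23.7%) in RING1B WT and 8.09% in untreated Parental cells, and both were at or below 0.133% in Parental and RING1B I53S cells with OHT. PCGF6, of a variant PRC1 found at promoters of germline genes, was at 4.77% (38.3%), and at 4.42%, 2.04% and 0.801% in untreated Parental, OHT-treated Parental and RING1B I53S cells. RYBP was at 0.267% (9.15%), with 1.23% in untreated Parental and 0.150% in RING1B I53S cells. Across these antibodies the shared peaks stood above the WT-only peaks in RING1B WT cells, with intervals that did not overlap.

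H3K27me3 was the most frequent of the 11 antibodies in RING1B WT cells. It marked 1955 WT-only peaks (32.6%, 31.4% to 33.8%) in RING1B WT cells, against 67.0% (66.1% to 67.9%) of the shared peaks and 1.63% of the genome covered by its list. The share was 36.3% (35.1% to 37.6%) in untreated Parental cells, 12.8% (12% to 13.7%) in Parental cells with OHT and 11% (10.2% to 11.8%) in RING1B I53S cells. Most of this H3K27me3 was shared with untreated Parental cells, where H2AK119ub1 had no peak. It was listed in both lines at 1593 WT-only peaks (26.6%), in RING1B WT cells only at 362 (6.04%), in untreated Parental cells only at 585 (9.76%) and in neither at 3454 (57.6%). The H3K27me3 lists held 19761, 18245, 14283 and 18909 peaks in the order RING1B WT, untreated Parental, Parental with OHT and RING1B I53S. They covered 1.63%, 1.58%, 0.983% and 1.21% of the genome in the same order. The list of RING1B I53S cells thus held more peaks than that of untreated Parental cells but covered less of the genome.

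PRC2 subunits differed widely among themselves. SUZ12, a core subunit, was at 9.96% of the WT-only peaks in RING1B WT cells (50.3% of the shared peaks), 14.5% in untreated Parental, 5.09% in OHT-treated Parental and 1.79% in RING1B I53S cells. EPOP was at 13.6% in RING1B WT and 13.3% in untreated Parental cells, but at 1.90% and 2.02% in Parental and RING1B I53S cells with OHT. AEBP2 was at 0.501% in RING1B WT cells and 0.484% in untreated Parental cells. These antibodies had 1 library per condition, so the differences between cell lines have no replicate check.

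MTF2 and JARID2 could be compared over 2 libraries. MTF2 was at 12.9% and 13.7% of the WT-only peaks in the RING1B WT libraries (13.3% ± 0.613, SD, n = 2) and at 1.5% and 7.56% in the RING1B I53S libraries (4.53% ± 4.28, SD, n = 2). The MTF2 lists held 8629 and 8335 peaks in RING1B WT and 3091 and 7546 in RING1B I53S, in the same order. JARID2 was at 8.68% and 9.61% in RING1B WT (9.14% ± 0.661, SD, n = 2) and at 0.317% and 0.0334% in RING1B I53S (0.175% ± 0.201, SD, n = 2). For both proteins the groups did not overlap, and with 2 libraries against 2 a two-sided exact permutation test cannot go below p = 0.333. Parental cells with OHT had MTF2 at 8.78% and JARID2 at 0.667%, each in 1 library. Without OHT, MTF2 was at 24.4% in RING1B WT, 19.7% in RING1B I53S and 41.2% in Parental cells, and JARID2 was at 12.8%, 11.7% and 30%, each in 1 library. The MTF2 and JARID2 lists of untreated Parental cells were also the longest of their kind, with 24485 and 14778 peaks.

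**Figure D2:**
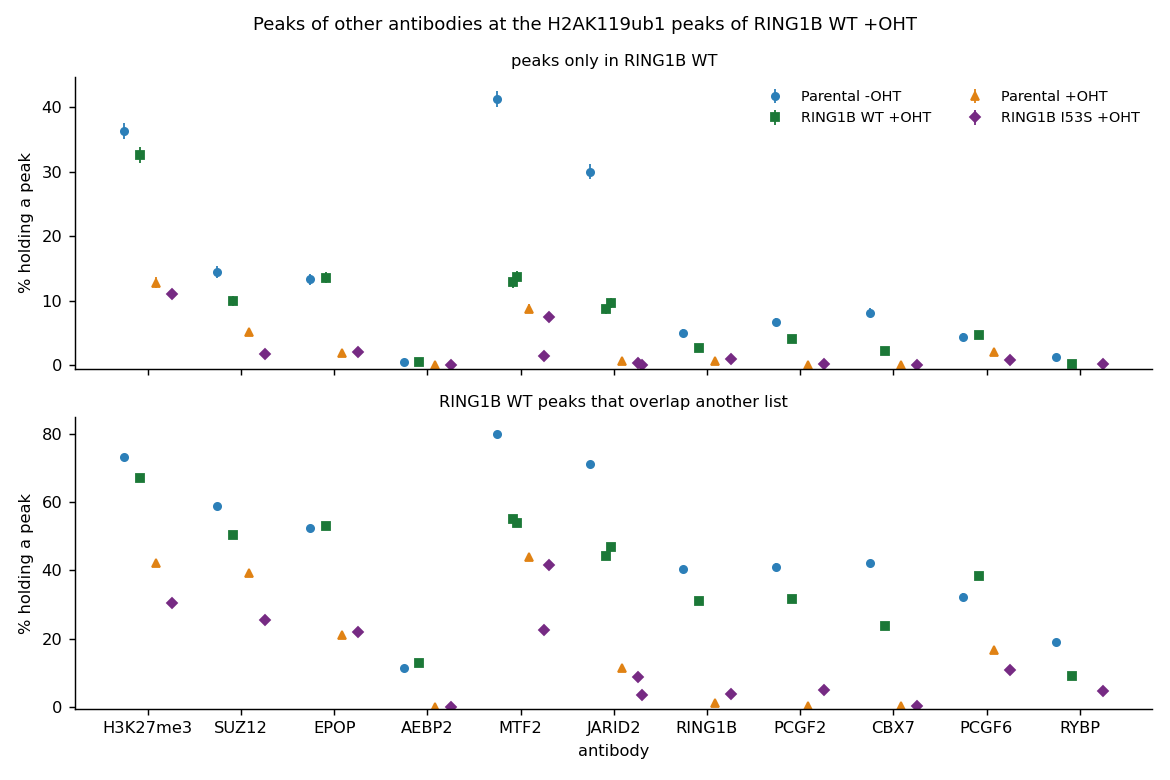
Share (%) of WT-only peaks (top) and shared peaks (bottom) that overlap a peak of each of 11 antibodies, for Parental cells without OHT (circles), RING1B WT (squares), Parental (triangles) and RING1B I53S cells (diamonds) with OHT. Each point is 1 library with its 95% Wilson interval, and the vertical scales of the panels differ. At WT-only peaks H3K27me3 stood at 36.3% and 32.6% in untreated Parental and RING1B WT cells and at 12.8% and 11% in Parental and RING1B I53S cells with OHT, and RING1B stayed at or below 5.04%.

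Because weak and short peaks hold fewer peaks of anything, WT-only and shared peaks were also compared within 1 range of score (10 to below 15) and length (500 to below 1500 bp). There RING1B was at 2.3% (1.85% to 2.85%) of 3438 WT-only and 11.1% (9.76% to 12.7%) of 1740 shared peaks. H3K27me3 was at 29.7% (28.2% to 31.2%) and 45.6% (43.2% to 47.9%), and SUZ12 at 8.90% (7.99% to 9.90%) and 26.9% (24.9% to 29.0%). All 3 gaps between the sets were narrower than over all peaks, and the intervals still did not overlap. In this range the shared peaks had a median score of 12.2 against 11.5 and a median length of 927 bp against 847 bp, so the match is not complete.

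Counted together, 3651 WT-only peaks (60.9%) held none of the 11 antibodies in RING1B WT cells, and 1127 (18.8%) held H3K27me3 and nothing else. Any PRC2 subunit was found at 1119 (18.7%) and any PRC1 subunit at 441 (7.36%). At 454 (7.57%) there were 5 antibodies or more, and 2 peaks held all 11. In untreated Parental cells the same places held any PRC2 subunit at 43.2%, any PRC1 subunit at 12% and none of the 11 at 45.7%. The 4 input libraries with a list were inputs for H3K27me3 in MTF2 KO cells, and none had a peak at any of the 5994 WT-only peaks. These lists held only 9 to 19 peaks each, so they cannot show whether input signal was raised at these places.

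Occupancy went with the distance to the H2AK119ub1 peaks of the other lists, but not in 1 direction. H3K27me3 was at 44.0% (41.0% to 47.0%) of the WT-only peaks within 1 kb of another list, 35.2% from 1 to 5 kb, 25.8% (24.1% to 27.7%) from 5 to 50 kb and 32.5% (29.7% to 35.4%) beyond 50 kb. SUZ12 went from 16.2% through 6.09% and 6.18% to 17.8% (15.7% to 20.3%), and RING1B from 4.88% through 2.11% and 1.03% to 5.38% (4.18% to 6.91%). SUZ12 and RING1B were thus most frequent at the nearest and the most remote WT-only peaks, and H3K27me3 was least frequent from 5 to 50 kb.

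**Figure D3:**
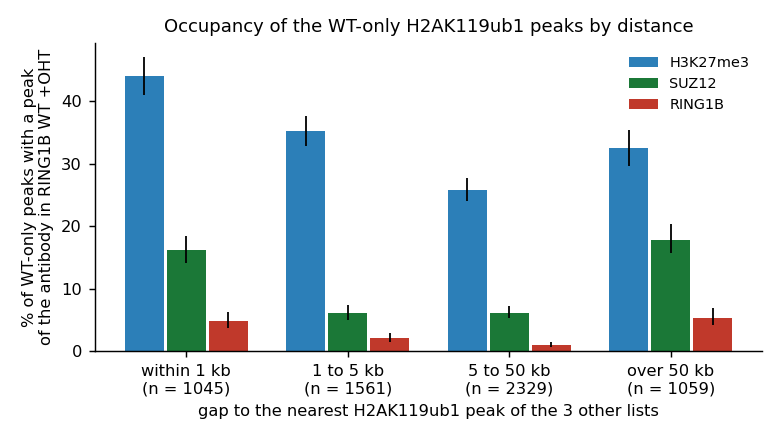
Bars give the share (%) of WT-only peaks that overlap a peak of H3K27me3, SUZ12 or RING1B in RING1B WT cells with OHT, by the gap to the nearest H2AK119ub1 peak of the other 3 lists, with 95% Wilson intervals. SUZ12 and RING1B are lowest between 1 and 50 kb and higher at both ends, and H3K27me3 is highest within 1 kb and lowest from 5 to 50 kb.

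The 130 island-like WT-only peaks differed from the rest in what they held. Of these, 113 (86.9%, 80.1% to 91.7%) were at a promoter, against 40.2% of the other WT-only peaks. SUZ12 was at 50.8% (42.3% to 59.2%) against 9.06%, MTF2 in the first RING1B WT library at 56.9% against 11.9%, JARID2 in the first library at 33.1% against 8.13%, PCGF6 at 41.5% (33.4% to 50.1%) against 3.96% and RING1B at 13.1% (8.33% to 19.9%) against 2.52%. For H3K27me3 the shares were 29.2% (22.1% to 37.6%) against 32.7% (31.5% to 33.9%), with intervals that overlapped.

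In MTF2 KO derivatives of these lines, H3K27me3 was listed at fewer of these places. It was listed at 10.8% of the WT-only peaks in MTF2 KO Parental cells without OHT, against 36.3% in those cells with MTF2. With OHT, the MTF2 KO values were 2.7% in RING1B WT, 0.234% in Parental and 1.5% in RING1B I53S cells. In the same lines with MTF2 they were 32.6%, 12.8% and 11%. SUZ12 in MTF2 KO cells was at 4.75%, and with OHT at 4.97%, 1.33% and 0.617%. With MTF2 it was at 14.5%, 9.96%, 5.09% and 1.79% in the same order. The H3K27me3 list of MTF2 KO RING1B WT cells was itself short, with 3382 peaks, and shared peaks held H3K27me3 at 21% there. Each value rests on 1 library.

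The WT-only peak with the highest score, 41.9, lay at the promoter of AC161379.1, a gene model without a single RNA count in any library (chr17:64874161-64876250), and held none of the 11 antibodies. The next was intergenic (chr1:119188522-119191584, score 38.5) with 4 antibodies, among them H3K27me3 in RING1B WT and untreated Parental cells, and lay 109923 bp from the next list. Further intergenic peaks on chromosomes 5 (chr5:118437617-118443007, 37.0) and 6 (chr6:140601809-140603066, 31.1) held no antibody. Setd1b, which encodes an H3K4 methyltransferase, had a WT-only peak at its promoter (chr5:123162960-123164976) with a score of 31.0, and Grap2, an adaptor of T cell signalling, one in an intron (chr15:80616363-80617577) with 30.7.

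The longest WT-only peak spanned 7337 bp of an intron of Shisal1 (chr15:84397560-84404896) and was marked by H3K27me3 in RING1B WT cells only. A peak of 6669 bp at the promoter of Plch2, which encodes a phospholipase C (chr4:154982327-154988995), held 6 of the 11 antibodies. Peaks of 6294 bp in Crtac1 at the promoter of AC151978.1 (chr19:42379985-42386278), 5887 bp in an intron of the zinc transporter gene Slc39a11 (chr11:113329375-113335261) and 5722 bp at Kcnh2 (chr5:24327727-24333448) followed. Kcnh2, a potassium channel gene, kept H3K27me3 in all 4 conditions.

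The WT-only peaks with the strongest RING1B lay next to shared territory. At Foxd2 and Foxd2os (chr4:114909510-114910173) the RING1B score in RING1B WT cells was 160 and 9 antibodies were present. At Tox2 (chr2:163205383-163206759) it was 140, at Nfia (chr4:97776008-97777049) 139, at Slc24a4 (chr12:102127759-102128546) 112 and at Nwd2 (chr5:63648191-63649604) 103. Foxd2 is a forkhead factor, Tox2 an HMG-box protein, Nfia a nuclear factor I protein and Slc24a4 an ion exchanger. All 5 peaks were 260 to 778 bp from a peak of another list, and RING1B was listed in untreated Parental cells at 4 of the 5, Tox2 being the exception. The printed windows of Foxd2 and Tox2 belong to these peaks.

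WT-only peaks touched the promoters of 2605 genes, of which 1882 were protein-coding, 196 lincRNA and 147 antisense genes. At 1509 of them the WT-only peak was the only H2AK119ub1 peak of RING1B WT cells, and at 1096 a shared peak was also present, whereas 5680 genes had shared peaks alone. A further 499 genes had a WT-only peak in the gene body alone. Of all 21923 protein-coding genes, 8.58% had a WT-only peak at the promoter and 22.7% a shared peak.

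Several signalling families had WT-only peaks at promoters of some members. Of 29 Wnt ligand and Frizzled receptor genes 5 had one, namely Wnt1, Wnt2, Wnt5b, Wnt7b and Fzd8, and 28 had a shared peak. Of 16 FGF ligand genes 4 had one (Fgf4, Fgf5, Fgf13 and Fgf17), of 39 HOX genes 3 with shared peaks at 39, and of 16 TGF-beta and BMP ligand genes 1 (Bmp2). Shared peaks were at 11 of the 16 FGF and 11 of the 16 TGF-beta and BMP ligand genes. Potassium channel genes had a WT-only peak at 18 of 99 (18.2%) and solute carrier genes at 55 of 375 (14.7%), against the 8.58% of all coding genes. Shared peaks were also more frequent there, at 59.6% and 31.5% against 22.7% of all coding genes. Zinc finger protein genes had a WT-only peak at 11 of 374 (2.94%), olfactory receptor genes at 4 of 1106, and ribosomal protein genes at 0 of 99. None of these shares was tested.

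Among Polycomb genes themselves, Ring1, the gene of RING1A, had a weak WT-only peak (chr17:34025072-34026422, score 11.1). Kdm2b, whose product brings a variant PRC1 to CpG islands, had one (chr5:122898172-122898675, 11.2) only 12 bp from another list. Auts2, of another variant PRC1, had one with H3K27me3 (chr5:131617416-131619098, 11.8), and Lcor, a locus that also encodes the PRC2 subunit PALI1, one (chr19:41483277-41484020, 10.6) that was 38869 bp from the next list. None of the 7 genes of H2AK119 deubiquitinases and their cofactors, Bap1 among them, had a WT-only or a shared peak at the promoter.

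RNA was measured by RNA-seq in Parental, RING1B WT and RING1B I53S cells without and with OHT, with 2 libraries in each of the 6 groups and 8140106 to 12743460 counts per library (median 9991785). Log2 CPM of replicates correlated with r of 0.965 to 0.983 across genes, which are not independent. Levels below are CPM, meaning counts per 1e6 of the library size scaled by TMM, and a gene was called when its log2 fold change reached 1.5 in either direction with an adjusted p under 0.05 from edgeR's quasi-likelihood test with Benjamini-Hochberg adjustment over 18154 genes. The labels number the replicates without saying that they were separate cultures, so the p-values measure the spread between these libraries. In bulk samples, fewer cells of a type and less RNA per cell cannot be told apart. Counting ignored strand, so reads of a gene and of an overlapping or antisense partner, as at Foxd2 and Foxd2os, are not separated.

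Rnf2, the gene of RING1B, had 198 and 257 CPM in Parental cells without OHT, 144 and 167 with OHT, 256 and 290 in RING1B WT cells without OHT and 260 and 233 with OHT, and 258 and 282 in RING1B I53S cells without OHT and 167 and 239 with OHT. Its log2 fold change with OHT in Parental cells was -0.55 (SE 0.20, edgeR adjusted p = 0.0346), short of the fold threshold. The counts are per gene name and not per exon, so they do not separate deleted, endogenous and transgene transcripts, and whether the deletion was complete was not tested. Ring1 stayed between 1.03 and 4.02 CPM in all libraries, and Bap1 between 50.8 and 87.8.

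Markers of ESCs were high in every group, and their sum was lowest in Parental and RING1B I53S cells with OHT. The summed level of 8 ESC markers was 3695 to 4324 CPM in untreated Parental cells, 1738 to 1863 in Parental and 2091 to 2274 in RING1B I53S cells with OHT, and 3623 to 3651 in RING1B WT cells with OHT. In the same order, 6 primitive endoderm markers summed to 3.09 to 3.50, 48.7 to 50.4, 38.4 to 39.1 and 8.96 to 12.8 CPM, and 7 trophoblast markers to 74.0 to 86.3, 359 to 381, 263 to 318 and 121 to 155. Sums of 7 neural markers were 3.46 to 4.73, 21.9 to 23.5, 21.1 to 21.5 and 5.84 to 10.7, and those of 6 mesoderm markers 3.21 to 3.26, 25 to 25.6, 19.7 to 21.8 and 6.73 to 7.04. Of 7 fibroblast markers Lum was at 0 in every library, and the list summed to 11.9 to 14, 45.7 to 48.4, 39.7 to 49.9 and 20.6 to 20.7. The part of these cell states in the RNA results that follow was not tested.

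Genes with a WT-only peak at the promoter were mostly expressed at low level, though above the median of all gene names. Per kilobase of transcript, their median in RING1B WT cells with OHT was 0.585 CPM, and 1107 of 2605 (42.5%) exceeded 1. The 1088 genes whose WT-only peak carried H3K27me3 in RING1B WT cells had a median of 0.262 CPM per kb, and the other 1517 genes one of 1.21. The 169 genes whose WT-only peak held RING1B were lowest, with a median of 0.0700. In Parental cells the median of all 2605 genes was 0.416 CPM per kb without OHT and 1.08 with OHT, and in RING1B I53S cells 0.473 and 1.07, whereas in RING1B WT cells it was 0.413 without and 0.585 with OHT. Over all 55341 gene names the median was 0.0112 in untreated Parental cells and 0.0223 in RING1B WT cells with OHT, where 24.9% exceeded 1. Genes with shared peaks alone had a median of 0.511 in RING1B WT cells with OHT, and 40.5% exceeded 1.

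In Parental cells 464 of these genes rose with OHT and 24 fell. Of the 2605 genes 1760 passed the filter on low counts, which a gene can also pass through the groups in which it is high. Of those tested 26.4% were called higher and 1.36% lower, where 15.1% of all genes tested were called higher and 1.83% lower. Their median log2 fold change was 0.72 (quartiles 0.03 to 1.76), against 0.03 over all genes tested. Genes with the WT-only peak alone were called higher at 21.8%, those that also had a shared peak at 31.0%, and genes with shared peaks alone at 35.6%. Genes with a WT-only peak in the body alone were at 15.6%, close to the background.

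The share was highest where H3K27me3 or RING1B was on the WT-only peak. Of 696 tested genes with H3K27me3 on the WT-only peak 297 (42.7%) were called higher in Parental cells, with a median log2 fold change of 1.41. Of 1064 without it 167 (15.7%) were, near the 15.1% of all genes, with a median of 0.38. Where RING1B was on the WT-only peak, 65 of 106 (61.3%) were called higher, with a median of 2.24. An overlap of 1 bp sufficed for this. The midpoint lay in a RING1B peak at 1.08% of the WT-only peaks, against 2.75% by overlap. H3K27me3 and RING1B were read from RING1B WT libraries and the RNA from other cells, and no test was made of the difference between these lists.

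In RING1B I53S cells, 436 of the 1760 genes were called higher (24.8%) and 5 lower (0.284%) with OHT, against 12.8% and 1.04% of all genes tested. The median log2 fold change was 0.64 against 0.01, and it was 1.33 with H3K27me3 on the WT-only peak (286 of 696 called higher, 41.1%) and 0.32 without (150 of 1064, 14.1%). Genes with shared peaks alone were called higher at 31.7% in RING1B I53S cells, with a median of 0.78. In RING1B WT cells, where the WT-only peaks are, 57 of the 1760 genes were called higher (3.24%) and 2 lower (0.114%) with OHT. Over all genes these shares were 1.34% and 0.0386%. Genes with shared peaks alone were called higher at 3.09%. The median log2 fold change of the 1760 genes was 0.29, against 0.02 over all genes and 0.29 for genes with shared peaks alone. The calls in RING1B WT cells rested on single libraries, with 59 in both directions together, 8 when RING1B WT -OHT replicate 2 was left out and 12 when the second replicate with OHT was.

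Compared with OHT in both lines, 237 genes with a WT-only peak were called lower in RING1B WT than in Parental cells (13.5%) and 5 higher (0.284%), where 7.62% of all genes were lower and 1.06% higher. RING1B I53S cells were called higher than RING1B WT cells at 194 genes (11%) and lower at 4 (0.227%), against 6.02% and 0.600%. With H3K27me3 on the WT-only peak the shares were 23.7% lower and 20.5% higher, and without it 6.77% and 4.79%. For genes with shared peaks alone they were 19.6% and 17.6%, above the 13.5% and 11% of all genes with a WT-only peak. These comparisons share the RING1B WT libraries with OHT with each other, and the Parental or RING1B I53S libraries with the OHT effects above, and are not independent. The total of 242 for RING1B WT against Parental cells fell to 115 when RING1B WT +OHT replicate 1 was left out, and to 136 and 145 for Parental +OHT replicates 1 and 2 in turn. The total of 198 for RING1B I53S against RING1B WT fell to 69 and 129 when each RING1B WT +OHT library was left out.

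Before OHT, none of these genes was called between RING1B WT and Parental cells. Of 1760 genes 0 were called by edgeR, against 0.0496% of all genes tested higher and 0.0110% lower in RING1B WT. At shares this low, a count of 0 is near the background. By edgeR, 128 of the 1760 genes and 825 of all 18154 genes tested had an unadjusted p under 0.05. DESeq2 called 1 of the genes with a WT-only peak. The difference between the OHT effect in RING1B WT and that in Parental cells was also tested, and edgeR called 28 of the 1760 genes, 26 with a lower and 2 with a higher log2 fold change in RING1B WT, against 1.10% and 0.435% of all genes. This test was added after the data were seen. Leaving out 1 library gave 7 to 36 such genes, the lowest when RING1B WT +OHT replicate 1 was left out. Parental -OHT replicate 2 left out gave 18, Parental +OHT replicate 1 gave 14 and its replicate 2 gave 11, and RING1B WT -OHT replicate 1 gave 14.

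**Figure D4:**
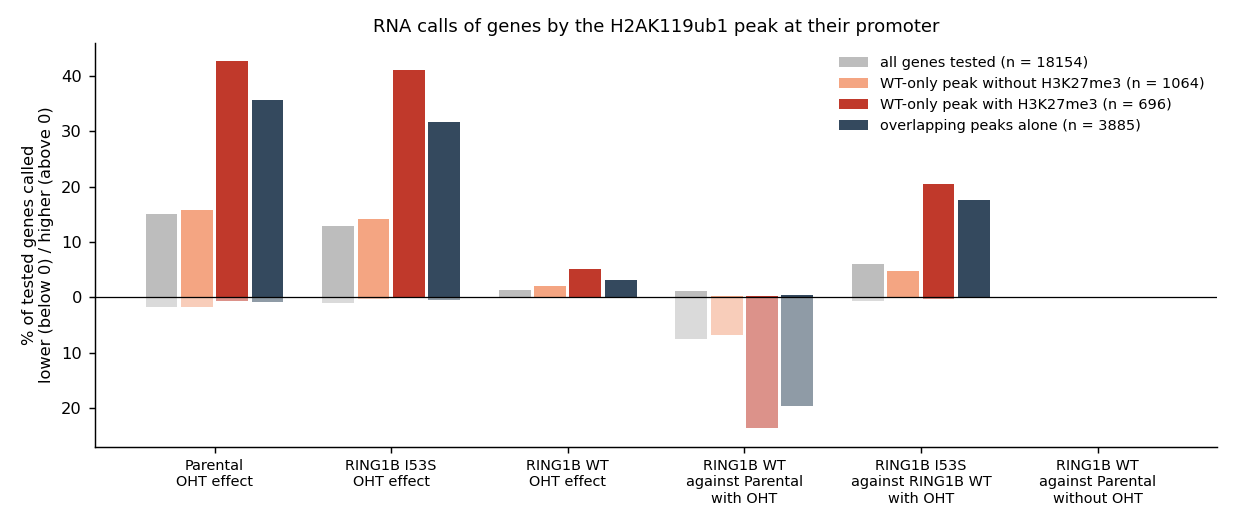
Share (%) of tested genes called higher (above 0) or lower (below 0, paler) by edgeR in 6 comparisons, for all genes tested, genes with a WT-only peak without or with H3K27me3 in RING1B WT cells, and genes with shared peaks alone at the promoter. In Parental cells with OHT, 42.7% of the genes with H3K27me3 on the WT-only peak were higher, against 15.7% without it and 15.1% of all genes.

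Gata3, a transcription factor of trophoblast and other lineages, led the genes that rose. Its WT-only peak (chr2:9890114-9891189, score 11.1) held 8 of 11 antibodies and lay 846 bp from another list. It had 0.489 and 0.494 CPM in Parental cells without OHT and 52.9 and 51.8 with OHT, 0.927 and 0.672 in RING1B I53S cells without and 35.6 and 36.8 with OHT, and 1.6 and 1.21 in RING1B WT cells without and 4.93 and 7.60 with OHT. In each line both libraries with OHT stood above both without, and RING1B WT cells with OHT lay far below the other lines. By edgeR the log2 fold change was 6.70 in Parental (SE 0.36, adjusted p = 7.02e-10), 5.46 in RING1B I53S (SE 0.33, adjusted p = 6.94e-09) and 2.13 in RING1B WT cells (SE 0.34, adjusted p = 0.00277). In RING1B WT cells the adjusted p was 0.0696 without the second library without OHT and 0.0618 without the second with OHT.

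Ccnd2, the gene of cyclin D2, which drives entry into S phase, had a pair of WT-only peaks (chr6:127137302-127137828 and chr6:127146041-127147347, scores 13.9 and 12.5). Its level was 2.44 and 4.33 CPM in untreated Parental cells and 195 and 166 with OHT, 2.39 and 3.07 against 86.3 and 86.5 in RING1B I53S cells, and 2.57 and 5.27 against 13.4 and 23.7 in RING1B WT cells. The groups did not overlap within any line. The log2 fold changes were 5.78, 4.99 and 2.23 in that order (edgeR adjusted p = 1.12e-09, 9.17e-09 and 0.00193). With OHT, RING1B WT cells were lower than Parental cells by a log2 fold change of -3.29 (SE 0.29, adjusted p = 3.63e-07).

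Crabp1, the gene of a retinoic acid-binding protein (WT-only peak chr9:54763341-54763915), had 23.9 and 18.5 CPM in untreated Parental cells and 166 and 166 with OHT, 25.4 and 22.4 against 122 and 141 in RING1B I53S cells, and 26.0 and 20.7 against 54.9 and 55.7 in RING1B WT cells. It rose by a log2 fold change of 2.96 in Parental (SE 0.21, edgeR adjusted p = 7.73e-09) and 2.46 in RING1B I53S cells (SE 0.20, adjusted p = 1.33e-07), and its value in RING1B WT cells, 1.24, was below the fold threshold. Id2, the gene of an inhibitor of bHLH factors (chr12:25096499-25098659), went from 14.6 and 15 CPM to 268 and 284 in Parental, from 21.5 and 11.3 to 244 and 227 in RING1B I53S and from 15.4 and 7.46 to 44.0 and 74.3 in RING1B WT cells. Its log2 fold changes were 4.22, 3.84 and 2.37 (edgeR adjusted p = 2.50e-08, 1.39e-07 and 0.00107), and no group with OHT overlapped its control.

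The other genes that led the list in RING1B WT cells were Cd7, a leukocyte surface protein (chr11:121039828-121040880), and Sct, the hormone secretin (chr7:141277464-141278982). Cd7 had 0.963 and 1.32 CPM in RING1B WT cells without OHT and 9.36 and 8.22 with OHT, a log2 fold change of 2.94 (SE 0.38, edgeR adjusted p = 0.00107). In Parental cells it went from 5.21 and 2.97 to 24.5 and 20.0 CPM, and in RING1B I53S cells from 2.63 and 2.21 to 15.4 and 13.9. Sct had 1.71 and 1.43 CPM in RING1B WT cells without OHT and 7.35 and 10.8 with OHT, a log2 fold change of 2.52 (SE 0.35, adjusted p = 0.00133). Cd7 rose in all 3 lines, with log2 fold changes of 2.41 in Parental and 2.59 in RING1B I53S cells, and Sct rose by 3.36 and 2.55 there. For Cd7 the difference between the RING1B WT and the Parental effect was 0.53 (SE 0.49, adjusted p = 0.709).

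Trh, the precursor of thyrotropin-releasing hormone, was the gene that fell most clearly. It had a pair of WT-only peaks (chr6:92242614-92243169 and chr6:92243580-92246140) with none of the 11 antibodies and no peak of another list within 13751 bp. It had 1675 and 2076 CPM in untreated Parental cells and 87.8 and 84.1 with OHT, 1046 and 1534 against 88.9 and 115 in RING1B I53S cells, and 1897 and 2805 against 679 and 534 in RING1B WT cells. Levels with OHT were below those without in all 3 lines, and RING1B WT cells kept the highest. The log2 fold changes were -4.45 (SE 0.25), -3.66 (SE 0.24) and -1.95 (SE 0.22), with edgeR adjusted p of 7.02e-10, 9.17e-09 and 5.20e-04.

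Chac1, which encodes an enzyme that degrades glutathione (chr2:119350056-119350762), had 91.9 and 64.4 CPM in untreated Parental cells and 14.8 and 16.7 with OHT, a log2 fold change of -2.32 (SE 0.24, edgeR adjusted p = 7.70e-07), and fell by 2.43 on the log2 scale in RING1B I53S cells. Vim, the gene of vimentin (chr2:13572648-13573503), went from 113 and 128 CPM to 41.8 and 39.5 in Parental cells, a log2 fold change of -1.57 (SE 0.19, adjusted p = 4.28e-06) at the edge of the threshold. Vax2os, a noncoding RNA opposite the eye homeobox gene Vax2 (chr6:83701154-83701738), went from 10.4 and 10.1 CPM to 2.01 and 1.81 in RING1B I53S cells, a log2 fold change of -2.42 (SE 0.33, adjusted p = 2.44e-05). Nfkbil1 (chr17:35220444-35220920) was the only other gene called lower in RING1B WT cells, with 12.9 and 5.92 CPM without OHT and 2.82 and 2.24 with OHT (log2 fold change -1.89, SE 0.41, adjusted p = 0.0196). Its call was lost when RING1B WT -OHT replicate 1 or either RING1B WT +OHT library was left out, at edgeR adjusted p of 0.168, 0.0672 and 0.235.

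With OHT in both lines, RING1B WT cells were higher than Parental cells at Frs3, an adaptor of FGF receptors (chr17:47692657-47694635), with 16.0 and 21.9 CPM against 6.23 and 7.02, a log2 fold change of 1.51 (SE 0.29, edgeR adjusted p = 0.00140) that fell under 1.5 with RLE scaling, with DESeq2, with other filters and with Parental +OHT replicate 1 or the second RING1B WT +OHT library left out. Kirrel2, a cell adhesion protein (chr7:30455004-30458802), had 14.6 and 12.1 CPM against 4.27 and 4.00, a log2 fold change of 1.69 (SE 0.39, adjusted p = 0.00508), with adjusted p of 0.0518 when the second Parental library was left out and 0.0577 when the first RING1B WT library was. Pdpn, the mucin-type glycoprotein podoplanin (chr4:143297030-143297569), was lower in RING1B WT cells, with 52.8 and 63.4 CPM against 291 and 213, a log2 fold change of -2.12 (SE 0.22, adjusted p = 4.16e-06). In these 3 genes the groups did not overlap.

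Between RING1B I53S and RING1B WT cells with OHT, Col4a2, a basement membrane collagen gene (chr8:11437719-11439804), had 41.4 and 37.1 CPM against 6.64 and 7.35, a log2 fold change of 2.49 (SE 0.28, edgeR adjusted p = 2.14e-05). Car4, a membrane-bound carbonic anhydrase gene (chr11:84965362-84965803), had 26.2 and 29.4 CPM against 1.61 and 4.23, a log2 fold change of 3.28 (SE 0.38, adjusted p = 2.99e-05). Krt42, a keratin gene with a pair of WT-only peaks (chr11:100264148-100265827 and chr11:100267843-100269658), was lower, with 39.1 and 39.8 CPM against 112 and 115, a log2 fold change of -1.52 (SE 0.20, adjusted p = 1.07e-04) that came to -1.50 without RING1B I53S +OHT replicate 1, just short of the threshold. Levels in RING1B I53S cells lay outside those of RING1B WT cells for all 3 genes.

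Of the Wnt genes with a WT-only peak, 3 of 5 were called higher with OHT in Parental cells and in RING1B I53S cells. All 5 also had a shared peak at the promoter, so their RNA cannot be assigned to either kind of peak. In RING1B WT cells edgeR called 0, with 3 at an unadjusted p under 0.05 and 1 called by DESeq2. Among all tested genes with a WT-only peak, 26.4%, 24.8% and 3.24% were called higher in Parental, RING1B I53S and RING1B WT cells. Over the whole list of 29 Wnt ligand and receptor genes, 16 were higher and 1 lower in Parental, 17 and 0 in RING1B I53S and 2 and 0 in RING1B WT cells. Over all genes tested, 15.1%, 12.8% and 1.34% were higher and 1.83%, 1.04% and 0.0386% lower in these lines. Wnt2 (chr6:18029272-18030030), with RING1B on its WT-only peak, had 0 CPM in both libraries without OHT of each line, 4.44 and 5.26 in Parental, 4.91 and 6.54 in RING1B I53S and 0.201 and 1.49 in RING1B WT cells with OHT. Against a floor of 3 counts over the group it was at least 32.8-fold higher in Parental (edgeR adjusted p = 5.36e-05) and at least 45.1-fold higher in RING1B I53S cells (adjusted p = 3.79e-05), while in RING1B WT cells the adjusted p was 0.0697. Its level with OHT was highest in RING1B I53S and lowest in RING1B WT cells.

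Wnt7b (chr15:85567773-85568363, no antibody present) had 0.733 and 0 CPM in untreated Parental cells and 10.3 and 9.36 with OHT, 0.232 and 0.480 against 8.83 and 6.54 in RING1B I53S cells, and 0.107 and 0.110 against 0.302 and 2.12 in RING1B WT cells. Its log2 fold change was 4.50 in Parental (SE 0.70, edgeR adjusted p = 6.34e-05) and 4.43 in RING1B I53S cells (SE 0.71, adjusted p = 1.28e-04), and the adjusted p in RING1B WT cells was 0.127. Wnt1 (chr15:98787612-98788008) had 0 CPM in both untreated Parental libraries and 2.31 and 4.00 with OHT, at least 21-fold higher (adjusted p = 1.05e-04). Wnt5b and Fzd8 had adjusted p of 0.245 and 0.774 in Parental cells. Wnt5b was at 8.97 to 14.6 CPM and Fzd8 at 0.163 to 0.494 CPM in the Parental libraries.

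FGF genes with a WT-only peak split by direction. At 2 of these 4 genes the WT-only peak was the only H2AK119ub1 peak of RING1B WT cells at the promoter. Fgf4, the main FGF ligand of ESCs (chr7:144849460-144850384, score 22.0), had 101 and 139 CPM in untreated Parental cells and 50.2 and 33.5 with OHT, a log2 fold change of -1.51 (SE 0.25, edgeR adjusted p = 1.11e-04) that fell under the threshold without Parental -OHT replicate 2 (-1.30) or Parental +OHT replicate 2 (-1.25). Fgf17 (chr14:70641259-70642921, score 23.8) had 28.3 and 19.7 against 7.34 and 7.70 CPM, a log2 fold change of -1.68 (SE 0.27, adjusted p = 1.01e-04), or -1.41 without Parental -OHT replicate 1. Fgf13 (chrX:59568702-59569312), 1321199 bp from the next list and with RING1B on it, went the other way, with 1.79 and 3.09 against 9.48 and 6.53 CPM, a log2 fold change of 1.74 (SE 0.42, adjusted p = 0.00334), or adjusted p of 0.0606 and 0.0533 without Parental -OHT replicate 1 or Parental +OHT replicate 1. Fgf5 was called in RING1B I53S cells, from 0.232 and 0.192 to 1.91 and 5.51 CPM (log2 fold change 4.05, SE 0.75, adjusted p = 4.63e-04), and had an adjusted p of 0.107 in Parental cells. In the whole list of 16 FGF ligand genes 13 were tested, with 5 higher and 2 lower in Parental and 6 and 0 in RING1B I53S cells. Over all genes tested, 15.1% were higher and 1.83% lower in Parental and 12.8% and 1.04% in RING1B I53S cells. Of the 4 FGF genes with a WT-only peak, edgeR and DESeq2 called 0 in RING1B WT cells, where 1 had an unadjusted p under 0.05.

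Every HOX gene with a WT-only peak also had a shared peak at the promoter, as did Pax6 and Bmp2. Among HOX genes with a WT-only peak, Hoxc12 had an edgeR adjusted p of 0.871 in Parental cells. It had 0.201 to 2.09 CPM over all libraries, and Hoxc6 was too low to be tested. Of 39 HOX genes 29 were tested, and 26 were higher in Parental, 25 in RING1B I53S and 5 in RING1B WT cells with OHT. The shares called higher over all genes tested were 15.1%, 12.8% and 1.34% in that order. Pax6, a regulator of eye and neural fate (chr2:105690153-105690765), went from 0.978 and 0.618 to 10.4 and 7.70 CPM in Parental cells (log2 fold change 3.45, SE 0.56, adjusted p = 9.06e-05) and from 0.428 and 1.10 to 1.21 and 2.62 in RING1B WT cells (adjusted p = 0.331). Bmp2 (chr2:133550678-133551452) had 0.326 and 0 CPM in untreated Parental cells and 2.05 and 2.34 with OHT, a log2 fold change of 3.45 (SE 0.95, adjusted p = 0.00775), and its adjusted p was 0.0768 without Parental -OHT replicate 2.

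Krt8, a simple epithelial keratin gene also expressed in trophoblast (chr15:102003756-102005996), had 39.4 and 35.7 CPM in untreated Parental cells and 108 and 111 with OHT, a log2 fold change of 1.55 (SE 0.21, edgeR adjusted p = 1.35e-05), or 1.44 without Parental -OHT replicate 2. Solute carrier genes with a WT-only peak were called higher at 15 of 48 tested in Parental, 15 in RING1B I53S and 1 in RING1B WT cells, with medians of 0.91, 0.87 and 0.40. Among all tested genes with a WT-only peak the shares called higher were 26.4%, 24.8% and 3.24%, and among all genes 15.1%, 12.8% and 1.34%. Against the same shares, potassium channel genes were called higher at 8 of 14, 7 and 2, with medians of 2.1, 1.96 and 0.46. Of 10 tested zinc finger protein genes with a WT-only peak, edgeR and DESeq2 called 0 in Parental cells, where 3 had an unadjusted p under 0.05 and the median was -0.13.

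At the WT-only peaks with the strongest RING1B, RNA was low without OHT. Foxd2 had 0 CPM in every library without OHT and 1.45 and 1.17 in Parental, 1.2 and 0.517 in RING1B I53S and 0.201 and 0 in RING1B WT cells with OHT. It was at least 8.96-fold higher in Parental (edgeR adjusted p = 0.00327) and at least 6.50-fold higher in RING1B I53S cells (adjusted p = 0.00906), the latter lost without 3 of the 4 libraries of RING1B I53S in turn, at adjusted p of 0.0602 to 0.0733. Nfia had 1.55 and 0.989 CPM in untreated Parental cells and 13.6 and 7.90 with OHT, a log2 fold change of 3.04 (SE 0.44, adjusted p = 3.33e-05), and Tox2 0.652 and 0.865 against 6.66 and 5.56, a log2 fold change of 3.02 (SE 0.50, adjusted p = 1.16e-04). In RING1B WT cells with OHT, Nfia had 2.42 and 3.49 CPM and Tox2 1.51 and 2.24, with adjusted p of 0.259 and 0.418 for the OHT effect. Slc24a4 had 0 CPM in both RING1B I53S libraries without OHT and 2.61 and 1.64 with OHT, at least 16.2-fold higher (adjusted p = 6.83e-04). Nwd2 had too few counts to be tested.

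At the WT-only peaks with the highest score or length, only the promoter genes Setd1b, Plch2 and Kcnh2 had enough counts to be tested. These are too few to set against the share called over all genes. Setd1b had 19.9 and 18.2 CPM in untreated Parental cells and 9.39 and 8.68 with OHT, and 24.1 and 28.3 against 11.6 and 9.59 in RING1B WT cells, with log2 fold changes of -1.07 (SE 0.27, edgeR adjusted p = 0.00384) and -1.30 (SE 0.27, adjusted p = 0.0128), both below the fold threshold. Plch2 had 1.71 and 1.98 against 6.58 and 3.80 CPM in Parental cells, an adjusted p of 0.0929, and its call in RING1B I53S cells (log2 fold change 1.84, SE 0.66, adjusted p = 0.0452) was lost without the second library of either group. Kcnh2 had 4.24 and 2.60 against 5.38 and 4.00 CPM in Parental cells, with an adjusted p of 0.397. Of the Polycomb genes with a WT-only peak, Kdm2b had 70.2 and 59.0 against 36.4 and 44.5 CPM in Parental cells, a log2 fold change of -0.68 (SE 0.20, adjusted p = 0.0137), Lcor had 16.5 and 18.7 against 13.7 and 14.2 CPM, with adjusted p of 0.287, and Auts2 had 53.9 and 44.6 against 58.2 and 52.0, with 0.637. Neither these nor Ring1 was called in any comparison.

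**Figure D5:**
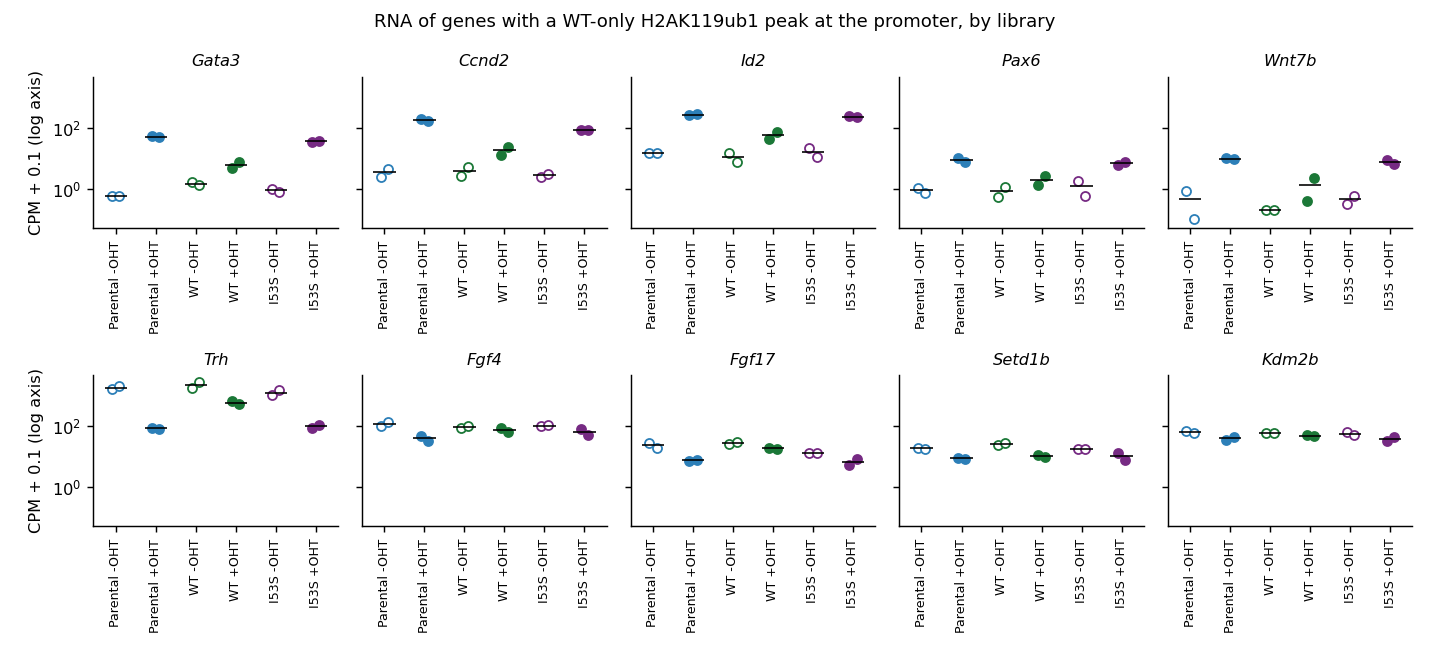
RNA level (CPM plus 0.1, log axis) of 10 genes with a WT-only H2AK119ub1 peak at the promoter, in the 2 libraries of each of 6 groups, open without and filled with OHT, with the group mean as a bar. Gata3, Ccnd2, Id2, Pax6 and Wnt7b stand higher with OHT in Parental and RING1B I53S cells than in RING1B WT cells, Trh and Fgf17 stand lower there, Fgf4 stands lower in Parental cells, and Setd1b and Kdm2b moved by less than the fold threshold.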

How the data were processed

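ChIP-seq peak lists of 69 libraries, 4 lists of inputs and RNA-seq counts of 12 libraries were used. Per the methods and the submitters' processing notes, reads were aligned to mm10 with Bowtie 1.2.2, duplicates were removed with samblaster, and peaks were called per library with MACS2 2.1.1 against an input of E14 ESCs. The deposited score is the −log10 of the MACS2 p-value as the authors filtered it, at least 10 in every list. Lists hold no reads, so depth per ChIP library and the Drosophila (dm6) spike-in scaling of histone marks were not analysed here. Deposited RNA counts were made by the authors from SMART-seq2 libraries with STAR 2.7 and featureCounts, without strand, on GENCODE gene names. The authors' normalized counts and DESeq2 1.20 comparison columns (fold changes and p-values), the Eed fl/fl tables, and a RYBP library whose label did not give its treatment plainly were not used.

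Overlaps (1 bp unless stated) were computed in Python 3.11.15 with numpy 2.4.6 on GRCm38, and figures drawn with matplotlib 3.10.9. Shares carry 95% Wilson intervals, which cover counting error only. Counts were fitted in R 4.3.3 with edgeR 4.0.16 (TMM, filterByExpr, 1 quasi-likelihood fit of 6 groups), and DESeq2 1.42.0 was an alternative. The biological coefficient of variation was 0.181. Of 55341 gene names 18154 were tested. A log2 fold change of at least 1.5 and an FDR under 0.05 made a call. On simulated data for the Parental OHT effect over 18154 genes, edgeR called 2.00%, 74.0%, 94.0% and 90.0% of 50 genes each with log2 changes of 1, 2, 3 and 5.

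The WT-only peaks (members), gene lists and named genes were chosen with earlier results of these data known. Named genes are the promoter genes of the 6 highest-scoring and 5 longest members, of the 5 with the highest RING1B score and of the nearest misses, the 3 with the lowest adjusted p per direction in each comparison, listed genes with a member (up to 30 in list order), and Rnf2, Ring1 and Bap1. Alternatives covered the overlap rule, scores, gaps, promoter width, tool, scaling, filters, fold threshold, replicate block and each library left out. The result of 1 listed gene is not reported here.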

Additional observations from a re-analysis of the deposited data

Results flagged for a closer look

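These results stood out because the response to OHT was not the same in both lines, RING1B WT and Parental, when edgeR tested the difference itself with 2 libraries per line and condition. Of the 1760 tested genes with a WT-only H2AK119ub1 peak at the promoter, 28 passed at the same thresholds, as did 279 of all 18154 genes tested, so the count is near the background. Gata3 had a difference of -4.57 on the log2 scale (SE 0.54, adjusted p = 1.06e-04), Ccnd2 one of -3.54 (SE 0.47, adjusted p = 3.09e-04) and Crabp1 one of -1.72 (SE 0.28, adjusted p = 0.00219), all with a smaller rise in RING1B WT cells. Col4a2 had a difference of -2.31 (SE 0.44, adjusted p = 0.00696), which was lost without RING1B WT +OHT replicate 1 (adjusted p = 0.0536). Id2 had one of -1.86 (SE 0.43, adjusted p = 0.0272), which was lost without 6 of the 8 libraries in turn, at adjusted p of 0.0612 to 0.289. Trh had a difference of 2.49 (SE 0.31, adjusted p = 1.59e-04), with a smaller fall in RING1B WT cells. Wnt1 passed with an adjusted p of 0.0394, but had 0 counts in untreated Parental cells and 3 to 4 counts per group in RING1B WT cells, and its call was lost without any 1 of the 8 libraries.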

How the results depend on the processing

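The selection decided most shares. With only peaks of the other lists that score at least 20 excluding a peak, there were 12030 WT-only peaks, with RING1B at 9.73%, H3K27me3 at 45.5%, SUZ12 at 23.4% and promoters at 50.4%. With WT-only peaks of score 20 or more there were 221, at 6.33%, 47.1%, 19.0% and 53.4%. When a peak was excluded only at 50% cover the 4 shares were 5.12%, 37.0%, 14.7% and 44.3%, and with no other peak within 1 kb 2.3%, 30.2%, 8.65% and 39.2%. With none within 5 kb there were 3388 peaks and H3K27me3 was at 27.9%. Without the Parental -OHT list there were 11382, at 7.68%, 47.7%, 19.4% and 45.4%, and without the Parental +OHT list RING1B was at 3.81%, SUZ12 at 12.3% and promoters at 44.0%. With the midpoint rule for overlap, RING1B, H3K27me3 and SUZ12 were at 1.08%, 28.9% and 5.26%, within 1 kb at 6.26%, 39.0% and 16.5%, and with occupying peaks of score 20 or more at 1.65%, 10.6% and 6.49%. Promoter shares were 30.4% at 1 kb, 52.5% at 5 kb and 37.7% by midpoint.

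Calls at promoter genes are given in the order Parental, RING1B I53S and RING1B WT OHT effects, RING1B WT against Parental and RING1B I53S against RING1B WT with OHT. With at least 10 counts in every library they were 178, 146, 18, 55 and 43, with WT-only peaks of score 20 or more 22, 26, 1, 13 and 6, and with no other list within 5 kb 224, 195, 27, 95 and 74. Without a fold threshold they were 816 and 710 for the Parental and RING1B I53S OHT effects and 447 and 351 for the 2 comparisons with OHT. Without a filter on low counts the RING1B WT OHT effect gave 90. Leaving out 1 library gave 377 to 480, 300 to 453, 8 to 60, 115 to 173 and 69 to 166. For RING1B WT against Parental cells without OHT the count of 0 became 2 without a filter, 1 by DESeq2 and 0 to 1 with 1 library left out. The test of the difference in OHT effects (alternatives chosen after seeing the data) gave 61 without a filter, 18 with at least 10 counts, 48 with the replicate block and 7 to 36 with 1 library left out. No value reversed. For the 17 genes named for the lowest adjusted p (29 pairs of gene and comparison), 14 of 255 alternatives lost the call, at Frs3, Nfkbil1, Kirrel2, Vim and Krt42. Other named genes also lost calls when 1 library was left out, given beside the calls the report prints.

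Same-numbered replicates share a number only. The correlation of their deviations across genes was 0.06 to 0.23 by comparison. With the replicate number as a block the counts above were 499, 461, 68, 255 and 222, and 0 for RING1B WT against Parental cells without OHT.

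ChIP depth was not measured. Peak lists hold neither reads nor spike-in, and only peaks above the minimum score. RLE in place of TMM moved the median over all genes by at most 0.02.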
